A study of Mus musculus with 1111 samples.

Results

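The 6 genes described here encode the receptors through which mouse cells bind immunoglobulin G. Fcgr1, Fcgr3 and Fcgr4 encode activating ligand-binding chains, Fcer1g the signalling chain these share, Fcgr2b the inhibitory receptor, and Fcgrt the neonatal Fc receptor. They were taken by name, as a family of related function, from the 35583 genes of the deposited count tables, and all 6 were found. The cells were brain microglia of mice 3 months old that had received plasma proteins labelled with the amine-reactive dye NHS-Atto647N 20 hours earlier. All groups share that age and that injection, so plasma none means microglia with no plasma signal in injected mice, not microglia of mice without injection. Microglia had been sorted by their plasma signal into the groups plasma none, plasma low and plasma high, and single cells were sequenced with Smart-seq2, a plate-based method that makes 1 full-length cDNA library per cell. The labels give no strain, sex or animal, and no name for the number from 1 to 3 that follows the letters TH in each cell's label.

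Activating Fcγ receptors bind the constant part of IgG that coats a particle or forms an immune complex. Their ligand-binding chains have little signalling capacity of their own and depend on the FcRγ chain made from Fcer1g, whose immunoreceptor tyrosine-based activation motif (ITAM) recruits the kinase Syk and starts phagocytosis. FcγRIIB, from Fcgr2b, carries an inhibitory motif that recruits phosphatases such as SHIP1 (Inpp5d) and restrains that signal. FcRn, from Fcgrt, pairs with β2-microglobulin (B2m), binds IgG and albumin at the acidic pH of endosomes and returns them from degradation. IgG and albumin are both major plasma proteins, and microglia, the resident macrophages of the brain, are known to express receptors of each kind.

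Of the 6 genes, 4 lie within 275749 bases of chromosome 1 (GRCm38, 170958617 to 171234365), in the order Fcgr2b, Fcgr4, Fcgr3 and Fcer1g. Fcgr1 (ENSMUSG00000015947) lies at 96282909 to 96293969 on chromosome 3, and Fcgrt (ENSMUSG00000003420) at 45092990 to 45103851 on chromosome 7. On chromosome 1, Fcgr2b (ENSMUSG00000026656) spans 170958617 to 170976547, Fcgr4 (ENSMUSG00000059089) spans 171018920 to 171029761, Fcgr3 (ENSMUSG00000059498) spans 171051174 to 171064935, and Fcer1g (ENSMUSG00000058715) spans 171229572 to 171234365. Only Fcgr4 is on the plus strand. All 6 deposited positions equal those of GENCODE M21.

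The sequences before the starts of the activating chains and of their shared signalling chain are shown because these are the genes whose levels are compared most closely below. Each is the part outside annotated exons of the 250 bases before a transcription start in the RefSeq promoter table (GRCm38.p6), 5′ to 3′ on the gene's strand. Capitals mark GAGGAA or its reverse complement TTCCTC, a purine-rich word of the kind bound by the macrophage factor PU.1.
Fcer1g, chr1:171234366-171234599, minus strand: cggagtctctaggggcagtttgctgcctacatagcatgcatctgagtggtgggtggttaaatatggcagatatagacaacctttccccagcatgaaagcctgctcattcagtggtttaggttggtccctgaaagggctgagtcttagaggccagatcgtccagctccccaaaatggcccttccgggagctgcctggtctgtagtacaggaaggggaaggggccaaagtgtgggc
Fcgr1, chr3:96293970-96294219, minus strand: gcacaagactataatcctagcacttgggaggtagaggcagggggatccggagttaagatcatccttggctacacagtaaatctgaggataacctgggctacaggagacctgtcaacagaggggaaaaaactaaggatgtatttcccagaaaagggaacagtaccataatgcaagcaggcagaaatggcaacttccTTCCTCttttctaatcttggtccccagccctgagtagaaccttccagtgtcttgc
Fcgr3, chr1:171059404-171059626, minus strand: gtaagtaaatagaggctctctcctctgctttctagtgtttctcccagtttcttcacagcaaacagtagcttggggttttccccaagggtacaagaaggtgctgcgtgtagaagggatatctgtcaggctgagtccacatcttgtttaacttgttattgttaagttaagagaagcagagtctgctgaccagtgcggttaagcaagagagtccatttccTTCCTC
Fcgr4, chr1:171018676-171018919, plus strand: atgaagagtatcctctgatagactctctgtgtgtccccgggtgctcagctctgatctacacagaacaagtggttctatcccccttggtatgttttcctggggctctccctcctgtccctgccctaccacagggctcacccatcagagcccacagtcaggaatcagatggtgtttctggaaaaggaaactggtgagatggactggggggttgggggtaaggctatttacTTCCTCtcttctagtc
Searched on both strands over the whole 250 bases, the word was present before Fcgr1, Fcgr3 and Fcgr4, the 3 activating ligand-binding chains. It began 55 bases before the start of Fcgr1, 22 before Fcgr4, and 6 or 15 before the 2 listed starts of Fcgr3. The Fcgr3 window lies inside the annotated span of that gene, not upstream of it. It was not in the windows of Fcer1g, Fcgr2b or Fcgrt. Of 32851 mouse promoters in the table, 7639 (23.3%) held the word in a window of that length, so its presence describes these letters and no binding was measured.

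The tables held 1045 of 1111 labelled cells, and 987 reached the minimum of 50000 reads in genes and 500 genes with a read (35.1% of them plasma none, 35.6% plasma low and 29.4% plasma high). The other 66 labelled cells were not analysed here. Reads of passing cells were summed by group within each TH number, giving 9 sums of 21309816 to 49323522 reads, and scaled to CPM, a gene's reads relative to all reads in genes. No label names an animal, so each group counts as 1 sample of cells. There is therefore no test between groups, and every SD below is over the 3 TH numbers (n = 3), which may be technical and is not a spread between animals. The groups also occupied different plate columns (1 to 8 for plasma none, 9 to 16 for plasma low, 17 to 24 for plasma high), so group and plate position cannot be told apart. Median reads per cell ranged from 175699 to 277222 in plasma none and from 228822 to 404743 in plasma high, and were higher in plasma high within each TH number. The cells carried the label's cell type: all 8 microglia markers had reads, and 987 of 987 cells held at least 3 of them. Markers of neutrophils, B cells, NK and T cells and mast cells, other users of these receptors, had 0 reads. Of 7 border-associated macrophage markers 2 had reads, with a summed level of at most 22.2 CPM in any sum (Cd163, Lyve1, Pf4, Ms4a7 and Clec4n at 0), and of 7 monocyte markers 2, at most 13.7 CPM (Ly6c2, Plac8, Chil3, Spn and Ace at 0). Of 6 endothelial markers 3 had reads, at most 26.1 CPM (Cldn5, Ly6c1 and Slco1a4 at 0).

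Fcer1g was the most abundant of the 6 and Fcgr4 the least. Per kilobase of the principal transcript, the mean level over the 9 sums was 1272 CPM for Fcer1g, 395.9 for Fcgr3, 247.05 for Fcgr2b, 101.28 for Fcgr1, 59.8 for Fcgrt and 18.5 for Fcgr4. Fcgr2b's place in that order depends on the length used. Over all its annotated exon bases (5790, against 1578 for its principal transcript) it had 67.3 CPM per kilobase, below Fcgr1's 101.28. By reads alone Fcer1g held 39.6% of all reads of the 6 genes, while Fcgr4 held 1.19% and ranked 6467th among all genes. Fcgr3 and Fcgr2b share stretches of exon sequence: 9.58% of the 50-base words of Fcgr3 also occur in Fcgr2b, so some of their reads could be counted to either. The other 4 genes share no such word with any of the 6. Fcgr2b and Fcgrt have antisense neighbours, and strand use in the counting is not given in the sources used here.

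Fcer1g, the shared signalling chain, was higher in both plasma-carrying groups than in plasma none. In plasma none its level was 791, 624 and 594.8 CPM at TH 1, 2 and 3. Plasma low gave 1003, 933 and 783 CPM. Plasma high gave 1020, 1070 and 896 CPM. Every plasma high value lay above every plasma none value. The means were 669.8 ± 105.97, 906 ± 112.5 and 995 ± 89.6 CPM (SD, n = 3). On the log2(CPM + 1) scale plasma high exceeded plasma none by 0.58 ± 0.21 (0.37, 0.78 and 0.59), or 1.49-fold. Plasma low exceeded plasma none by 0.44 ± 0.13, or 1.36-fold, and plasma high exceeded plasma low by 0.14 ± 0.10 (0.024, 0.20 and 0.19). With this scaling Fcer1g was the only member with plasma none below plasma low below plasma high at 3 of 3 TH numbers, a pattern held by 2.1% of the 5534 genes tested and by 4.8% of the 791 with at least 200 CPM. The order of plasma low and plasma high at TH 1 was not steady: TH 1 gave −0.048 with library-size scaling, −0.0049 at equal depth and −0.037 without the top cell of each sum. The 3 comparisons share groups and are not independent of one another.

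**Figure D1:**
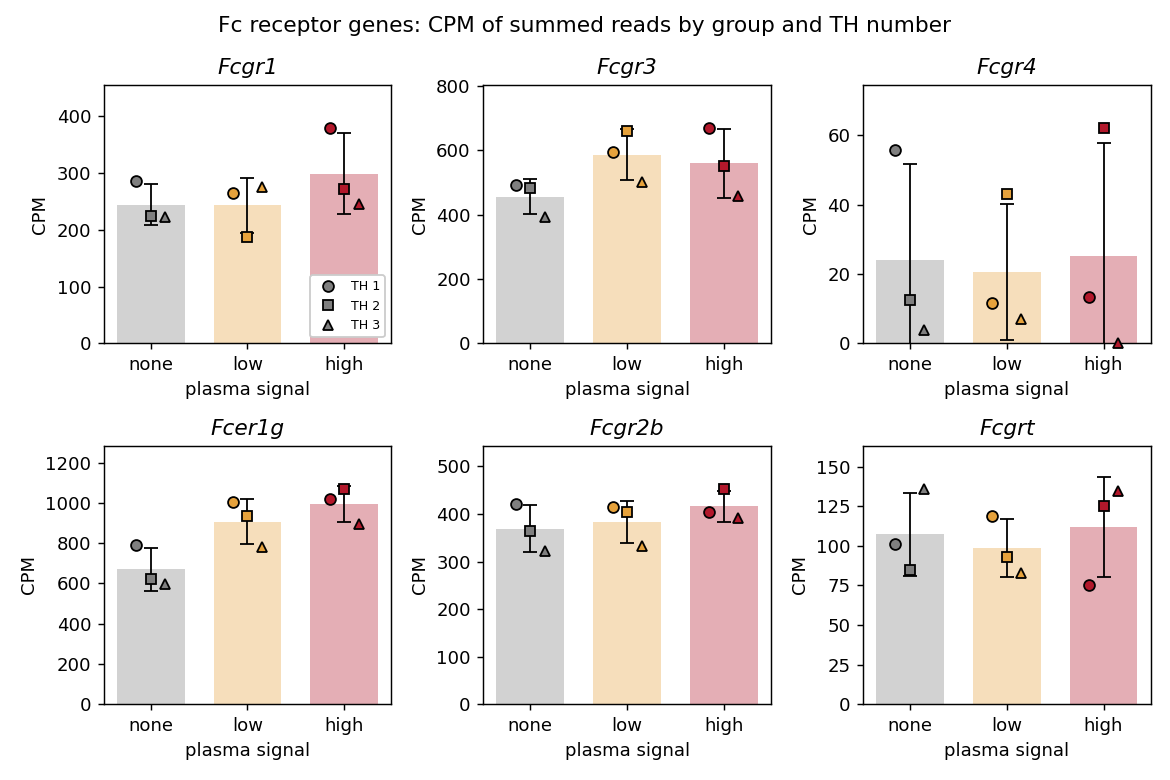
Level of each Fc receptor gene in CPM (vertical axis, a separate linear scale from 0 per panel) for the groups plasma none, low and high (horizontal axis). Bars are means, whiskers the SD over the 3 TH numbers (n = 3, ending at 0 where they would pass below it), and points the TH numbers by marker shape; Fcer1g averages 669.8 CPM in plasma none and 995 in plasma high without overlap, while Fcgrt and Fcgr4 overlap in all groups.

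Within cells, the Fcer1g difference was one of amount more than of presence. A read of Fcer1g was found in 957 of 987 cells. At an equal depth of 50000 reads per cell, the share of cells with a read was 94.8% for plasma none (95% exact binomial interval 91.9 to 96.9%), 97.7% for plasma low and 98.6% for plasma high (96.5 to 99.6%). These intervals treat cells as independent draws, and they hold no spread between animals, which no label names. Cells without a read numbered 18, 8 and 4. Among cells with a read, the medians at full depth were 659 CPM (plasma none), 813 CPM (plasma low) and 876 CPM (plasma high). The middle range of single cells was wide and overlapped between groups: the quartiles over all cells were 356.5 and 898 CPM in plasma none and 565 and 1234 CPM in plasma high. Plasma high exceeded plasma none in the median over cells at each TH number (908 against 677, 836 against 639.7, and 862 against 589.7 CPM). The top cell held at most 10.01% of the Fcer1g reads of any sum, and without the top cell of each sum plasma high exceeded plasma none by 0.53 on the log2 scale.

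Fcgr3, which encodes the low-affinity activating receptor FcγRIII, was also higher in both plasma-carrying groups, but with no step from low to high. Plasma none gave 492, 483 and 393 CPM at TH 1, 2 and 3. Plasma low gave 594.8, 659.8 and 502 CPM, all above every plasma none value. Plasma high gave 669, 551 and 457 CPM, and its lowest value lay under the 2 higher values of plasma none. The excess on the log2(CPM + 1) scale was 0.36 ± 0.09 for plasma low over plasma none (1.28-fold) and 0.28 ± 0.14 for plasma high over plasma none (1.22-fold), each higher at 3 of 3 TH numbers. Plasma high against plasma low gave −0.08 ± 0.22, with a higher value at TH 1 and lower ones at TH 2 and TH 3. Here more cells had a read: 68.5% of plasma none cells (63.3 to 73.4%), 82.1% of plasma low (77.6 to 85.9%) and 80% of plasma high (74.9 to 84.4%) at equal depth. By TH number these shares were 71.6, 63.7 and 70.1% for plasma none against 88.1, 80.3 and 77.6% for plasma low and 88.1, 70.8 and 80.6% in plasma high. At full depth, the median among cells with a read was 532 CPM for plasma none, 606 for plasma low and 497 for plasma high. The shares are at equal depth, and how the excess divides between share and level was not tested.

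Fcgr1, which encodes the high-affinity receptor FcγRI, gave a smaller difference, with 1 direction at 3 of 3 TH numbers only for plasma high against plasma none. Plasma none gave 285.9, 224.4 and 222.9 CPM. Plasma low gave 265.9, 187.9 and 275.8 CPM. Plasma high gave 379.6, 271.5 and 246.1 CPM, with TH 1 the highest in each group but plasma low. Plasma high exceeded plasma none at 3 of 3 TH numbers, by 0.27 ± 0.13 on the log2 scale (1.21-fold), although the 2 groups overlapped across TH numbers. Without the outermost wells TH 1 gave 0.71 and TH 3 gave −0.054, and at equal depth TH 3 gave 0.0096. Plasma low did not stand apart from plasma none (−0.02 ± 0.29, higher at 1 of 3). Plasma high exceeded plasma low at TH 1 and TH 2 and was lower at TH 3 (0.29 ± 0.40). The share of cells with a read at equal depth was 49.4% (44.03 to 54.8%) for plasma none, 48.4% (43.1 to 53.8%) for plasma low and 58.3% (52.4 to 64.01%) for plasma high, and the intervals of plasma none and plasma high overlap. Cells with a read at full depth had similar levels in the 3 groups, with medians of 393, 381.2 and 397 CPM.

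Fcgr4, which encodes the activating receptor FcγRIV, was read in 35 of 987 cells. These were 9 plasma none, 16 plasma low and 10 plasma high cells, and at equal depth the shares were 2.60, 3.99 and 3.10%. Its sums ran from 3.77 to 55.6 CPM for plasma none, from 7.15 to 42.9 for plasma low and from 0 to 62.04 for plasma high, where TH 3 had no read in 93 cells. Single cells set these values: the top cell held 33.2 to 97.01% of the reads of each sum that had any. The log2 ratios for plasma high against plasma none were −1.99, 2.23 and −2.25 at the 3 TH numbers, so no direction was detectable. Under 10% of cells in every group had a read, which placed Fcgr4 outside the 5 members tested by the rules below.

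Fcgr2b, the inhibitory receptor, showed no common direction in summed reads. Plasma none gave 422, 363.5 and 323.1 CPM, plasma low 414, 404 and 332.9 CPM, and plasma high 404, 453 and 391 CPM. The groups overlapped throughout, and plasma high was above plasma none at TH 2 and TH 3 and slightly below it at TH 1. The log2 ratios were 0.18 ± 0.21 for plasma high and 0.06 ± 0.09 for plasma low against plasma none, and 0.12 ± 0.14 for plasma high against plasma low. Without TH 1 the ratio for plasma high against plasma none was 0.30, and without TH 2 it was 0.11. As a mean over cells, plasma high exceeded plasma low by 0.27 and at each TH number. More cells of plasma high had a read (64.5%, 58.7 to 69.99%) than of plasma none (51.7%, 46.3 to 57.1%) at equal depth, with plasma low between (60.1%, 54.8 to 65.3%). That order held for plasma high over plasma none at each TH number (66.3 against 56.9, 60.4 against 47.8, and 66.7 against 50.4%). Among cells with a read at full depth, the median was 533 CPM in plasma high and 503 in plasma low against 653.5 in plasma none. How share and level combine was not tested.

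Fcgrt, the neonatal Fc receptor, showed no common direction. Plasma none gave 101.1, 84.7 and 135.99 CPM, plasma low 118.7, 93.2 and 83.1 CPM, and plasma high 75.6, 125.1 and 134.7 CPM. Against plasma none, the log2 ratios of plasma high were −0.42, 0.56 and −0.01 (0.04 ± 0.49), and those of plasma low were 0.23, 0.14 and −0.70 (−0.11 ± 0.51). A read was found in 22.5% of plasma none cells, 27.1% of plasma low and 27.6% of plasma high at equal depth.

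**Figure D2:**
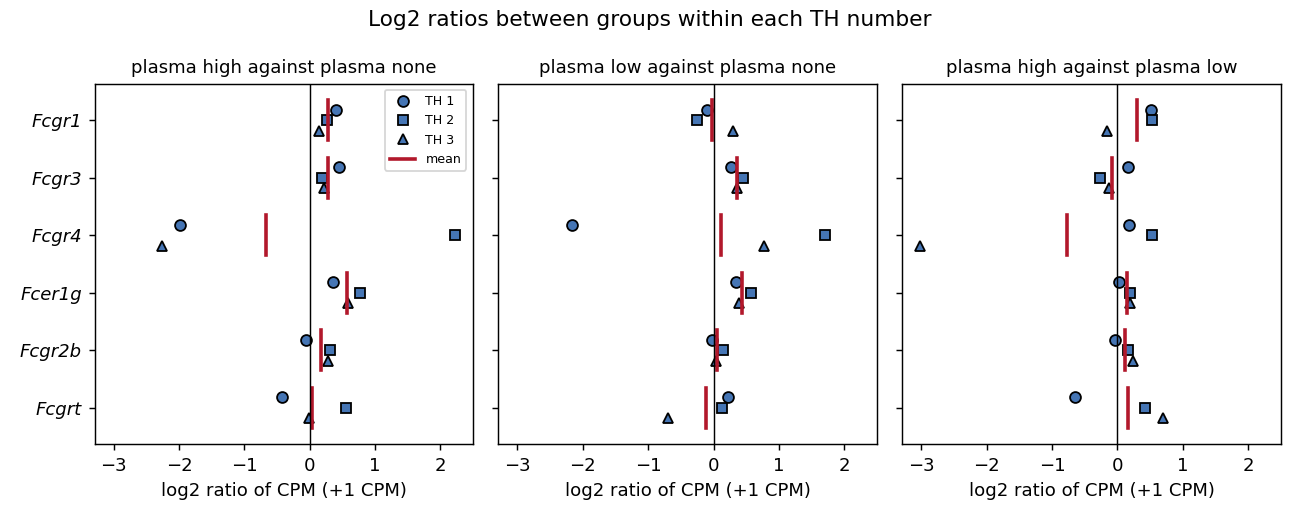
Log2 ratio of CPM (pseudocount 1 CPM; horizontal axis, shared by the panels) of each member in the 3 comparisons. Points are the 3 TH numbers by marker shape and red lines their mean; Fcer1g and Fcgr3 lie to the right of 0 at every TH number against plasma none, and Fcgr4 spreads from −2.25 to 2.23 in plasma high against plasma none.

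Read against all genes, the receptors' differences were modest in size. Genes were tested where they averaged 20 CPM or more and 10% or more of some group's cells had a read. The size rule asked for an average log2 ratio of 1 or more in either direction, with 1 sign at 3 of 3 TH numbers. Of the 5 members tested, 0 met the size rule in any comparison. Across all tested genes it was met by 5.15% in plasma high against plasma none, 2.64% in plasma low against plasma none and 3.28% in plasma high against plasma low.

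In plasma high against plasma none, 3 of 5 members (Fcer1g, Fcgr3 and Fcgr1) were higher at 3 of 3 TH numbers and 0 were lower. Among the 5534 tested genes 18.8% were higher and 13.8% lower in that way, and 25.3% were higher among the 791 genes with at least 200 CPM, where Fcer1g, Fcgr3, Fcgr2b and Fcgr1 belong. Only Fcer1g was higher without overlap of the groups, as were 8.51% of tested genes. Its ratio was above that of 86.1% of tested genes and of 93.7% of those with at least 200 CPM. The median log2 ratio over all 6 members was 0.23 (0.15, 0.44 and 0.18 by TH number), beside 0.05 over tested genes and 0.04 over those with at least 200 CPM.

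In plasma low against plasma none, 2 of 5 members (Fcer1g and Fcgr3) were higher at 3 of 3 TH numbers and 0 were lower. The background was 16.7% higher and 11.8% lower of 5489 tested genes, and 18.1% higher of genes with at least 200 CPM. Fcgr3 was higher without overlap, as were 5.34% of tested genes. Among genes with at least 200 CPM, Fcer1g's ratio stood above 96.97% and Fcgr3's above 93.4%. The median over all 6 members was 0.08 (0.10, 0.30 and 0.33 by TH number), beside 0.05 over tested genes. The members' median was 0.25 without TH 1 and 0.23 in thinned cells, but 0.040 with a pseudocount of 5 CPM. With no block by TH number it was 0.024.

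In plasma high against plasma low, Fcer1g alone of 5 members was higher at 3 of 3 TH numbers and 0 were lower, where 14.1% of 5709 tested genes were higher and 13.1% lower. Its sign at every TH number was kept in 10 of 13 processing alternatives. The median over all 6 members was 0.13 (0.096, 0.31 and 0.029 by TH number; 0.061 without TH 2), beside 0.01 over tested genes. Reads per cell and the mitochondrial share (medians of 0.548 to 0.659% in plasma none and 0.751 to 1.15% in plasma high) moved with the groups. At an equal 50000 reads per cell, plasma high against plasma none gave log2 ratios of 0.54 for Fcer1g, 0.29 for Fcgr3 and 0.19 for Fcgr1; the part of the mitochondrial share was not tested.

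Reads of genes in general were found in more cells of the plasma-carrying groups. At 50000 reads per cell, the median number of genes with a read was 1601.5, 1449 and 1540.0 per cell of plasma none at TH 1, 2 and 3. Plasma low gave 2012, 1622 and 1814.5, and plasma high 1879, 1644.5 and 1709. Against plasma none, the share of cells with a read was higher in plasma high at 3 of 3 TH numbers for 4 of 5 members (Fcer1g, Fcgr3, Fcgr1 and Fcgr2b), and for 35.5% of tested genes. It was higher without overlap for 2 of 5 members (Fcer1g and Fcgr2b), and for 17.2% of tested genes. For plasma low over plasma none the counts were 3 of 5 members (Fcer1g, Fcgr3 and Fcgr2b), beside 39% of tested genes, and without overlap 1 of 5 (Fcgr3), beside 17.2%. The part of this general difference in the members' shares of cells was not tested.

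**Figure D3:**
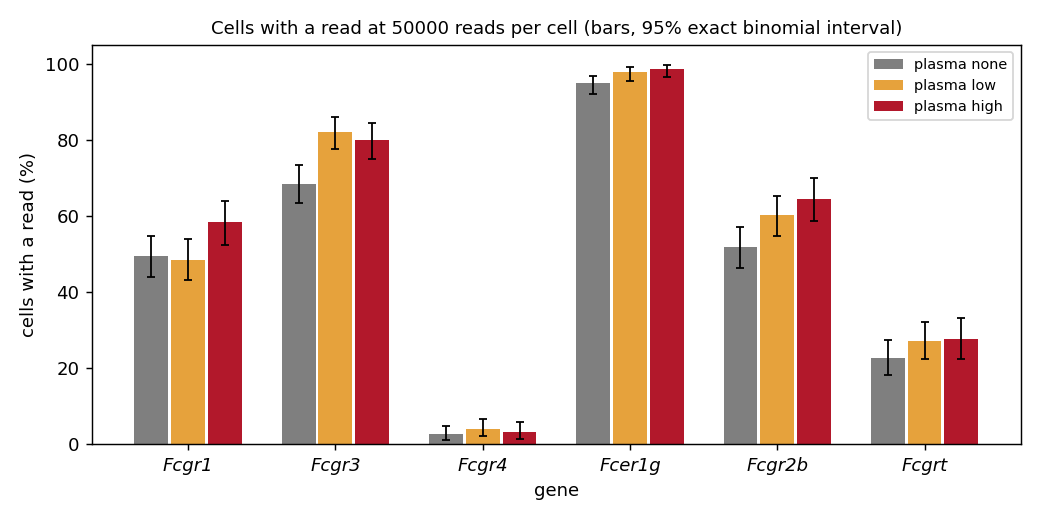
Share of cells with a read of each member (vertical axis, percent of passing cells, from 0) at 50000 reads per cell in the 3 groups. Bars are shares over all cells of a group and whiskers their 95% exact binomial intervals; Fcgr3 stands at 68.5% in plasma none against 82.1% in plasma low, while Fcgr4 stays under 5% of cells.

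The balance of activating to inhibitory receptors was taken as the level per kilobase of annotated exon bases of Fcgr1, Fcgr3 and Fcgr4 together over that of Fcgr2b. It was 6.01, 5.97 and 5.65 for plasma none, 6.35, 6.97 and 6.98 for plasma low, and 7.76, 6.03 and 5.30 for plasma high. Plasma low was above every plasma none value, and plasma high ranged from above all plasma low values to below all plasma none values. The means were 5.88 ± 0.20, 6.77 ± 0.36 and 6.36 ± 1.27 (SD, n = 3). With principal transcript lengths, a choice added after seeing the data, the ratios were 1.93 ± 0.06, 2.25 ± 0.12 and 2.09 ± 0.41, lower because Fcgr2b's principal transcript is much shorter than its exons together. Fcgr3 over Fcgr2b alone gave 4.12 ± 0.28, 5.09 ± 0.33 and 4.49 ± 0.89 over exon bases.

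The signalling chain was compared with its ligand-binding partners in the same way. Fcer1g over Fcgr1, Fcgr3 and Fcgr4 together was 2.07, 1.90 and 2.16 for plasma none, 2.52, 2.19 and 2.23 for plasma low, and 2.15, 2.60 and 2.86 for plasma high. Plasma low exceeded plasma none at each TH number, and the TH 1 value of plasma high lay within the plasma none range. The means were 2.04 ± 0.13, 2.32 ± 0.18 and 2.54 ± 0.36.

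Single cells, thinned to 50000 reads, were classed by the IgG-binding Fcγ chains that had a read. More genes in general had a read in the plasma-carrying groups, as given above, and the part of that in the classes was not tested. Cells with a read of neither an activating chain nor Fcgr2b made up 11.6% of the plasma none cells (40 cells), 5.98% in plasma low (21 cells) and 4.14% in plasma high (12 cells). All plasma none values were above all values of the other groups (9.48, 15.04 and 10.3% against 3.96, 5.21 and 3.23%), while plasma low gave 2.54, 8.55 and 6.90%. A read missing at this depth does not show that the receptor is absent from the cell. Cells with both an activating chain and Fcgr2b made up 44.2 ± 5.55% in plasma none, then 56.9 ± 12.1% in plasma low, then 58.2 ± 6.40% in plasma high (mean ± SD over TH numbers, n = 3). An activating chain without Fcgr2b was found in 36.7 ± 2.88, 33.9 ± 8.66 and 31.4 ± 2.59%. Fcgr2b alone was found in 7.53 ± 1.15, 3.13 ± 1.29 and 6.27 ± 3.21%.

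**Figure D4:**
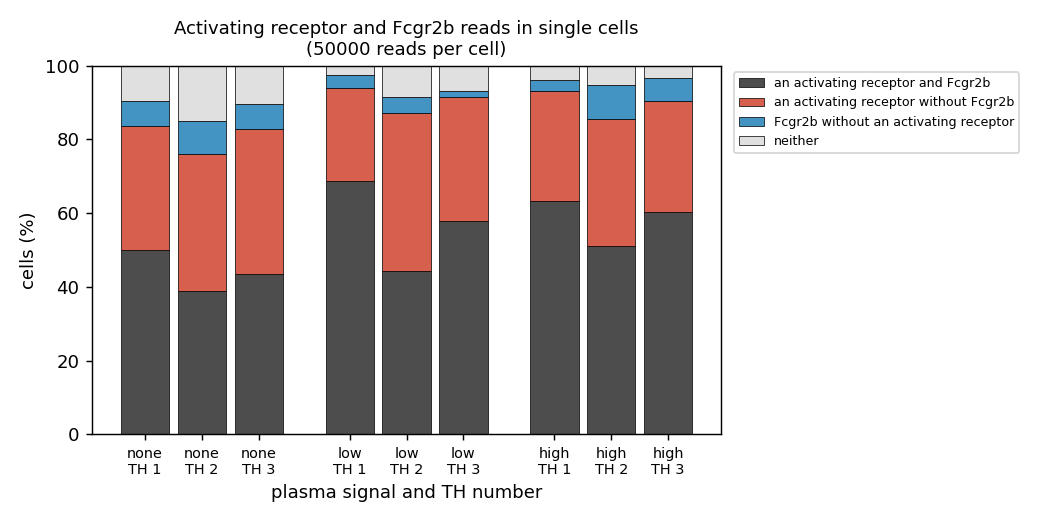
Share of cells (vertical axis, percent of passing cells at 50000 reads per cell) in each group and TH number (horizontal axis) by which Fcγ chains had a read: an activating chain (Fcgr1, Fcgr3 or Fcgr4) and Fcgr2b, an activating chain without Fcgr2b, Fcgr2b alone, or neither. Each stacked bar is 1 TH number of 1 group; the cells with neither are 9.48, 15.04 and 10.3% of plasma none and 3.96, 5.21 and 3.23% of plasma high.

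A cell with both Fcer1g and an activating chain has messages for a complete signalling receptor. Such cells made up 81.9, 70.8 and 79.5% of the plasma none cells at TH 1, 2 and 3. The shares were 94.1, 85.5 and 87.9% for plasma low and 93.1, 83.3 and 89.2% for plasma high. Every value of both plasma-carrying groups was above every plasma none value, in cells that also had reads of more genes in general. Cells with at least 4 of the 6 genes made up 30.3% (plasma none), 37.6% (plasma low) and 44.1% (plasma high), and the mean number of members per cell was 2.89 ± 0.23, 3.19 ± 0.38 and 3.32 ± 0.18.

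Across the cells of a group, the receptors' levels were at most weakly related to each other. Of the 15 pairs, Fcgr3 and Fcgr2b had the highest Pearson correlation of log2(CPM + 1) across the 987 cells, centred within group and TH number, at 0.09, and they share sequence. At 50000 reads per cell both were read in 465 cells, where 447 would hold both if they were independent. The correlations are at full depth. Fcgr4 and Fcgr2b were both read in 26 cells at 50000 reads, where 18.9 would hold both. All other pairs had correlations between −0.04 and 0.06. Cells share library and depth within a plate, and correlations this weak in sparse counts are no finding.

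The genes whose levels across the 987 cells were most like each member, among 4907 with at least 20 CPM and a read in at least 10% of cells, were also only weakly alike. For Fcer1g they were Cst3 (Pearson r = 0.23), which encodes the protease inhibitor cystatin C, C1qb (0.18), a chain of complement C1q, and Rps9 (0.17), a ribosomal protein. Coro1a, Cd86 and Pitpna followed Fcgr3 at 0.13 to 0.14, and Prkaca, Pdpk1 and Ntpcr followed Fcgr1 at 0.13. Csf1r, the receptor for colony-stimulating factor 1, Cfl1 and Ccdc152 followed Fcgr2b at 0.13. Cd79b, Scamp5 and Eloc followed Fcgrt at 0.12. Prr14, Rpl38 and Ripk1 followed Fcgr4 at 0.14 to 0.18, over its 35 cells with a read.

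The genes of ITAM signalling, a list of 36 with the adaptor Tyrobp among them, gave few steady differences. In plasma high against plasma none 4 of 27 tested were higher at 3 of 3 TH numbers (Tyrobp, Vav1, Rac2 and Cdc42), 1 was lower (Lcp2) and 0 met the size rule, with a median log2 ratio of 0.16 over the 33 listed genes with at least 5 CPM. In plasma low against plasma none 1 of 25 was higher and 2 were lower (median 0.04). In plasma high against plasma low 4 of 28 were higher and 2 were lower (median 0.09). Their shares of genes higher are read against the 18.8, 16.7 and 14.1% of tested genes given above.

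Tyrobp, which encodes DAP12, the other ITAM adaptor of microglia, was like Fcer1g higher in both plasma-carrying groups than in plasma none. Plasma none gave 749, 568 and 562 CPM, plasma low 937, 674 and 787 CPM, and plasma high 1144, 729.8 and 761 CPM. Plasma low (0.35 ± 0.12, log2) and plasma high (0.47 ± 0.13) exceeded plasma none at each TH number, with overlap across TH numbers. Plasma high against plasma low gave 0.12 ± 0.17, higher at 2 of 3 TH numbers. Syk, the kinase both adaptors recruit, had 48.9 ± 10.4, 54.3 ± 11.6 and 61.1 ± 30.6 CPM and no common direction. The extremes were taken among listed genes with a mean of at least 20 CPM over the groups compared. Rac2, a GTPase of phagocytic cup formation, had the largest positive ratio of these for plasma high against plasma none, 0.48 ± 0.30 (219.6 ± 41.3 against 156.3 ± 21.7 CPM). Gab2, an adaptor read in 82 cells, had the most negative there and in plasma high against plasma low, −0.65 ± 1.94 and −0.74 ± 1.15, within its spread. In plasma low against plasma none the extremes were Blnk, an adaptor (0.35 ± 0.42), and Pik3r1, a PI3-kinase subunit (−0.45 ± 0.37). Card9, an adaptor downstream of Syk, had the largest positive one for plasma high against plasma low, 0.62 ± 0.95, within its spread.

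Of 10 genes of inhibitory signalling, 6 were tested in each comparison and 0 met the size rule. Against plasma none, 2 were higher at 3 of 3 TH numbers in plasma high (Cbl and Csk) and 1 lower (Dok3), and in plasma low 2 were higher (Ptpn6 and Dok1) and 1 lower (Csk). In plasma high against plasma low 1 was higher (Csk) and 1 lower (Ptpn6). These counts are read against 18.8% higher and 13.8% lower of all tested genes in plasma high against plasma none, 16.7 and 11.8% in plasma low against plasma none, and 14.1 and 13.1% in the last. The list's medians were 0.10, 0.21 and −0.12. Inpp5d, which encodes SHIP1, the phosphatase recruited by FcγRIIB, stood at 328.1 ± 34.6, 324.8 ± 54.1 and 353.01 ± 72.6 CPM over the groups in that order, with no common direction. Ptpn6, which encodes the phosphatase SHP-1, was highest in plasma low. Plasma none gave 458, 395 and 445 CPM, plasma low 527, 544 and 583 CPM, and plasma high 522, 425 and 370.6 CPM. All 3 plasma low values lay above all values of the other groups, narrowly so for plasma high at TH 1. There the top cell held 16.3% of the Ptpn6 reads. Of tested genes, 5.34% were higher in plasma low than in plasma none without overlap. Among listed genes with a mean of at least 20 CPM, Cbl, a ubiquitin ligase, had the largest ratio for plasma high against plasma none, 0.85 ± 0.81, and against plasma low, 0.60 ± 0.73. Dok3, an adaptor, had the most negative in plasma high against plasma none (−0.72 ± 0.43) and against plasma low (−0.50 ± 0.81), and Csk, a kinase that restrains Src kinases, in plasma low against plasma none (−0.31 ± 0.40).

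For FcRn, the list held its partner B2m and genes of endosomal recycling, 10 in all, with 6 tested in each comparison. B2m and Rab11b, a GTPase of recycling endosomes, were higher at 3 of 3 TH numbers both in plasma high and in plasma low against plasma none, beside 18.8 and 16.7% of all tested genes. Exoc6, of the exocyst, was lower in plasma high (−0.96 ± 0.84), and Rab11a and Snx4 were lower in plasma low, each at 3 of 3 TH numbers. Of all tested genes, 13.8 and 11.8% were lower in that way. The medians were −0.08, −0.09 and −0.03 for the 3 comparisons. For B2m, plasma none gave 2224, 1801 and 2060 CPM, plasma low 2633, 2198 and 2307 CPM, and plasma high 3463, 2130 and 2570 CPM, where TH 1 was highest. The TH 2 values of both plasma-carrying groups lay below TH 1 of plasma none. B2m exceeded plasma none by 0.23 ± 0.06 in plasma low and 0.40 ± 0.21 in plasma high, unlike Fcgrt, which had no common direction. B2m is also the light chain of MHC class I. Appl1, an endosomal adaptor, passed the size rule for plasma high over plasma low (1.04 ± 0.94), from 21.6 ± 2.01 to 50.1 ± 26.3 CPM.

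Other Fc-binding and Fc receptor-like genes were mostly silent. Of 13 listed, 2 were tested, Fcrls and Fcrl1. Fcrls, an Fc receptor-like gene typical of microglia whose ligand is not established, exceeded every member in reads, at 2549 ± 247.8, 2722 ± 346.3 and 2385 ± 539 CPM in the 3 groups. Plasma low slightly exceeded plasma none (0.09 ± 0.07) and plasma high lay below plasma low (−0.21 ± 0.16), each at 3 of 3 TH numbers. Fcrl1, best known from B cells, met the size rule as lower in plasma high against plasma none (−1.09 ± 0.74) and against plasma low (−1.07 ± 0.88). It was read in 16.2, 19.4 and 11.7% of cells. Plasma none gave 74.8, 148.9 and 42.5 CPM, plasma low 80.3, 94.9 and 60.03 CPM, and plasma high 19.2, 79.2 and 30.6 CPM, so the groups overlapped across TH numbers. All B cell markers in the tables had 0 reads. Trim21, the cytosolic antibody receptor, was read in 20 cells.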

How the data were processed

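The deposited values were counts of reads per gene and cell, 1 table per TH number, and 1 deposited column of TH 3 was read as one of expected counts, since 2 values were not whole and were rounded. Per the file headers, TH 2 and TH 3 were counted from alignments kept to top hits, and TH 1 carries no such note. The submitters' processing notes name bcl2fastq, Trim Galore, STAR 2.5.3a, Seurat and mm10. The counting tool, annotation and strand setting are not given in the sources used here.

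Passing cells had at least 50000 reads in genes and 500 genes with a read. Their reads were summed by group and TH number and scaled to CPM with TMM factors (edgeR 4.0.16, R 4.3.3). Log2 ratios used a pseudocount of 1 CPM within each TH number and were averaged over the 3. Each well held 1 sorted cell. Doublet calling and clustering were not run. Named genes are the 6 receptors, their direct companions, the 3 genes most like each receptor (predicted and clone-named genes left out), and of each pathway list the genes meeting the size rule and the extremes with at least 20 CPM. The receptors and lists were chosen with earlier results of these data known. Summing and scaling were tested on simulated data. Alternatives were library-size scaling, DESeq2 1.42.0 size factors, pseudocounts of 0.5 and 5 CPM, other cell filters, no gene filter, each TH number left out, thinned cells, means over cells, top cells or outermost wells left out, and ratios of mean CPM.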

Additional observations from a re-analysis of the deposited data

How the results depend on the processing

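Across 13 alternatives with values by TH number, Fcer1g and Fcgr3 exceeded plasma none in both plasma-carrying groups in 13 of 13, with 1 sign at every TH number used. Fcer1g ranged from 0.48 to 0.69 and from 0.37 to 0.52 (log2), and Fcgr3 from 0.20 to 0.34 and from 0.31 to 0.43. Plasma high exceeded plasma none for Fcgr1 in 13 of 13 (0.19 to 0.34), with 1 sign at every TH number in 12 and not without the outermost wells. For plasma high over plasma low, the excess of Fcer1g had 1 sign at every TH number in 10 of 13, and not with library-size scaling (mean 0.10), in thinned cells (0.098) or without top cells (0.076). Fcgr2b, 0.12 in that comparison, was 0.27 as a mean over cells. Fcgrt and Fcgr4 changed sign between alternatives in each comparison. The members' median for plasma low against plasma none, 0.08, was 0.23 in thinned cells, 0.24 as a mean over cells and 0.25 without the outermost wells, and ranged from 0.055 to 0.25 with 1 TH number left out (0.25 without TH 1). The size rule was met by 5.15% of tested genes for plasma high and 2.64% for plasma low against plasma none, and by 3.28% for plasma high against plasma low. With 1 TH number left out, where fewer signs must match, the shares were 8.23 to 10.9%, 5.52 to 6.79% and 6.85 to 7.70%. With no filter on low counts they were 8.35, 6.56 and 6.81%, or 1434, 1118 and 1173 genes. The activating to inhibitory ratio of plasma none was 5.53 without the outermost wells, and that of plasma low was 7.21 in thinned cells and 7.17 as a mean over cells; the cause was not tested. Principal transcript lengths gave 1.93, 2.25 and 2.09 for plasma none, low and high. Ratios were taken within TH numbers, though no label says that these pair samples; ratios of mean CPM with no such block gave members' medians of 0.23, 0.024 and 0.16. The sums of Fcgr4 rest on at most 7 cells each.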
